A study of Mus musculus with 22 samples.

Results

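Mutant and control hypothalamus were compared after sleep deprivation in 8 of the 22 libraries of the series, all from the same gene count table. They are the 4 libraries labelled mutant and the 4 labelled control in the sleep-deprived group, and no library was chosen by its values. The mutant mice, PWScrm+/p−, lack Snord116 on the copy of chromosome 7 inherited from the father, and the control mice, PWScrm+/p+, carry it. All were C57BL/6J mice kept awake for 6 h and sampled at ZT6, that is 6 h after lights on, so the controls were sleep-deprived too. The labels give no age and no sex. Transcripts of the Y-linked gene Ddx3y stood at 45.5 to 145 CPM in all 8 libraries. Levels are given in CPM, which are counts scaled to the same library size after adjustment for library composition. Each title carries its own mouse number. The p-values measure the spread between these mice, which includes differences between the runs of title numbers described below unless run is a covariate. The other libraries of the series were sampled at ZT0 or at ZT6 without sleep deprivation.

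Snord116 is a tandem cluster of small nucleolar RNA genes in the introns of the long host transcript Snhg14. The locus is imprinted, meaning that only the paternal copy is expressed in neurons, and its loss on that copy is a core feature of Prader-Willi syndrome, with disturbed feeding and sleep. The hypothalamus holds the neurons concerned: orexin (Hcrt) and melanin-concentrating hormone (Pmch) cells of the lateral part that set arousal, and arcuate cells that set appetite through Npy, Agrp, Pomc and Cartpt. Staying awake loads these circuits with immediate early gene, stress hormone and protein folding responses. The comparison addresses whether hypothalami under that load differ by genotype.

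The sequence that separates the genotypes is shown first. The annotation places 71 Snord116 copies on the minus strand of chromosome 7 between 59673461 and 59923122 (GRCm38, GENCODE M21), with 28 distinct sequences, and 30 copies share the 1 printed here. The copy shown, Gm22285, lies at chr7:59678509-59678602 and is 94 nt long, printed 5′ to 3′ as the RNA-sense strand. Capitals mark ATGATGA (box C) and CTGA (box D), the 2 short motifs that define this class of small nucleolar RNA; 67 of the 71 copies hold both.
Snord116 (Gm22285): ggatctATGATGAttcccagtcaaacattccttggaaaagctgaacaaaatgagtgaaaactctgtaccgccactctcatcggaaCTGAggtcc

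The labelled genotypes were first read at this locus. The 71 copies together had 7, 6, 494 and 4 counts in control replicates 1 to 4 and 0 counts in each of the 4 mutant libraries. At these depths a count of 0 is compatible with as many as 3 counts, equal to 0.079 to 0.169 CPM in the mutant libraries (counting error only). Control replicates 1, 2 and 4 stood at 0.17 to 0.198 CPM, close to that limit, and the 4 counts of control replicate 4 lay on 1 copy, so the separation rested mainly on control replicate 3. Libraries made from polyadenylated RNA capture mature small nucleolar RNAs poorly, and near-identical copies share reads. The 137 Snord115 copies of the same host transcript had 88, 72, 211 and 13 counts in control and 44, 228, 77 and 4 in mutant libraries, with the groups overlapping.

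Snhg14 itself (minus strand, chr7:59307924-59975759) was at 446, 521, 420 and 188 CPM in control and at 226, 391, 320 and 204 CPM in mutant libraries. Its groups overlapped through control replicate 4, the lowest of all. The means were 393.5 and 285.3 CPM, and the difference of −108.2 CPM had an exact permutation p of 0.257 (two-sided, 70 splits, smallest possible p 0.0286, 0.6 after Benjamini-Hochberg adjustment over 3 genes). The other paternally expressed genes of the region, which lie outside the deletion, showed no common direction. Ndn, which encodes necdin, a protein of postmitotic neurons, was at 604 to 791 CPM in control and 692 to 1089 CPM in mutant libraries (log2 fold change 0.35 ± 0.20 SE, and 0.58 ± 0.20 without mutant replicates 1 and 4). Magel2, a ubiquitin ligase regulator mutated in Schaaf-Yang syndrome, was at 66 to 122 against 58.7 to 80.8 CPM (−0.38 ± 0.21). Snrpn, the first gene of the host transcription unit, was at 749 to 1481 against 562 to 1140 CPM (−0.26 ± 0.28). Of 17 members of the Prader-Willi region tested, 11 were higher and 6 lower in mutant libraries, with a median of 0.07 on the log2 scale and no member whose groups stood apart. This list also holds Snhg14, Ube3a, Gabra5 and Tubgcp5, so its counts are not of paternally expressed genes alone. Without mutant replicates 1 and 4, 9 were higher and 8 lower (median 0.16), and 5 stood apart, all higher (all genes 8.36%). The mutants left, replicates 2 and 3, share 1 run of title numbers, described below.

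Total counts ran from 21741163 to 36417345 in control libraries and from 18229852 to 33829150 in mutant libraries, with the fourth replicate the shallowest of each group. Mutant replicates 1 and 4 hold transcripts of the pituitary, the gland that hangs below the hypothalamus. A list of 13 pituitary genes summed to 20830 CPM in mutant replicate 1 and 1154 CPM in mutant replicate 4. It summed to 14.5 and 10.7 CPM in mutant replicates 2 and 3 and to 10.2 to 42.9 CPM in control libraries. Growth hormone (Gh) reached 17400 and 966 CPM in those 2 libraries, 0 counts in mutant replicates 2 and 3 and at most 5.97 CPM in control. Every main count below is therefore given for 4 mutant libraries against 4 control libraries and again for mutant replicates 2 and 3 against the same 4.

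The mouse numbers in the titles fall into 3 consecutive runs. Run 1 (3102 to 3104) holds control replicates 1 and 2 with mutant replicate 1, run 2 (3140 to 3143) holds control replicate 3 with mutant replicates 2 and 3, and run 3 (3197 and 3198) holds the fourth library of each group. The libraries followed these runs more than genotype. The median Spearman correlation across genes was 0.982 for the 5 pairs of unlike genotype in 1 run and 0.953 for the 10 pairs of like genotype in different runs. The first principal component held 33.5% of the variance and set both run 3 libraries (102 and 69.6) apart from the other 6 (−38.6 to −18.6). Without the pituitary-bearing libraries both remaining mutants belong to run 2, while 3 of the 4 controls do not, so run and genotype cannot be told apart there. Differences within runs are given for that reason. The plot of library checks shows both patterns.

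**Figure D1:**
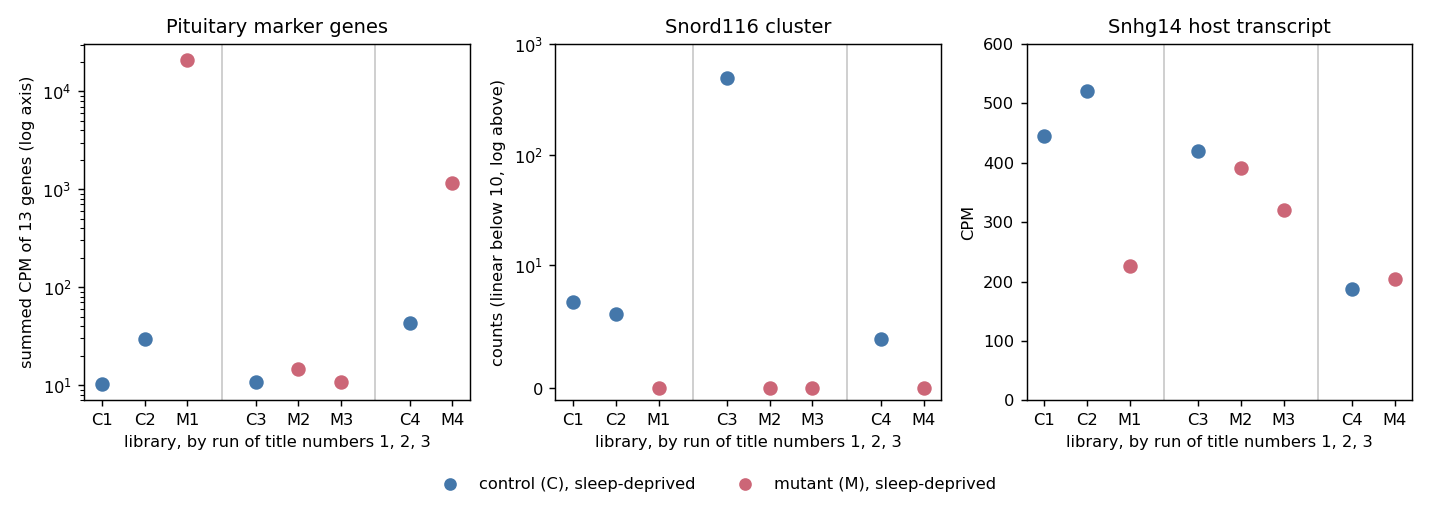
Each point is 1 sleep-deprived library, control (C) in blue and mutant (M) in red, ordered by run of title numbers with grey lines between runs; the panels give the summed CPM of 13 pituitary genes on a log axis, the counts over 71 Snord116 copies (linear below 10, log above) and the CPM of Snhg14. Mutant replicates 1 and 4 stand at 20830 and 1154 CPM in the first panel, all 4 mutants at 0 counts in the second, and control replicate 4 at 188 CPM in the third.

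No gene passed the test between the genotypes. With 4 against 4 libraries edgeR called 0 of 18604 genes (0%) at an adjusted p under 0.05, and the smallest adjusted p was 0.99. At an unadjusted p under 0.05 there were 676 genes (3.63%), with 1.34% of genes higher and 2.3% lower in mutant libraries. DESeq2 called 0, with 791 genes at an unadjusted p under 0.05. With mutant replicates 1 and 4 left out, edgeR called 0 of 19291 genes (smallest adjusted p 0.738, 828 genes or 4.29% at an unadjusted p under 0.05, 1.9% higher and 2.39% lower). In that smaller comparison DESeq2 called 7, all lower in the mutants, 1 of them Pomc, a pituitary gene whose level the exclusion itself lowered. With run as a covariate 3094 genes (16.6%) had an unadjusted p under 0.05 and 1 gene (0.00538%) was called, the pituitary hormone prolactin (Prl, log2 fold change 11.20 ± 0.59, adjusted p = 0.014), which is the transcript that mutant replicates 1 and 4 carry at 2167 and 139 CPM. Every value given below for a single gene is thus a description of 8 libraries with an adjusted p of 0.99 or more in edgeR's quasi-likelihood test of 4 against 4.

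The groups did not overlap for 215 genes higher in all 4 mutants (1.16% of genes tested) and 365 lower in all 4 (1.96%). For a gene unrelated to genotype, 1 of the 70 splits of 8 libraries gives each direction, so these shares alone show no genotype difference. The genes of smallest p among those higher were led by Ganab, the catalytic subunit of glucosidase II that trims sugars on proteins folding in the endoplasmic reticulum. It was at 25.7, 22.5, 16.9 and 16.4 CPM in control and 38.5, 36.9, 31.5 and 41.0 CPM in mutant libraries. Every mutant exceeded every control, by 0.86 ± 0.19 on the log2 scale, and the gap was 0.68, 1.01 and 1.32 within runs 1, 2 and 3. Nipbl, which loads cohesin onto chromosomes, was at 43.3, 52.8, 53.1 and 38.6 against 73.9, 74.0, 61.2 and 70.3 CPM (0.57 ± 0.16). Arl13b, a small GTPase of primary cilia, was at 7.29 to 9.97 against 13.04 to 15.4 CPM (0.71 ± 0.18). Map4k3, a kinase of amino acid signalling, was at 14.6 to 24.4 against 27.9 to 33.7 CPM (0.78 ± 0.20), and the adaptor gene Cd2ap at 22.2 to 31.3 against 35.5 to 44.6 CPM (0.58 ± 0.17). In these 5 genes every mutant exceeded every control, so a higher level within each of the 3 runs follows and adds no support. Without mutant replicates 1 and 4 their log2 fold changes were 0.75, 0.53, 0.71, 0.90 and 0.65 in the order given.

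Among those lower, Nxph4, a secreted ligand of neurexins at synapses, was at 54.5, 50.5, 37.5 and 57.1 CPM in control and 21.6, 22.5, 31.4 and 33.2 CPM in mutant libraries. The highest mutant lay below the lowest control, and the difference was −0.88 ± 0.21 on the log2 scale (−0.88 also without mutant replicates 1 and 4). Cwf19l1 had the smallest p of all genes with a mean of at least 1 CPM, at 1.33 to 4.91 against 0.448 to 1.12 CPM (−2.42 ± 0.50). Sco2 delivers copper to cytochrome oxidase and was at 2.42 to 6.16 against 1.02 to 2.00 CPM (−1.50 ± 0.36). Pam16, part of the mitochondrial import motor, was at 14.2 to 22.9 against 8.72 to 12.7 CPM (−0.77 ± 0.21). Psmb5, a catalytic subunit of the proteasome, was at 92.3, 77.0, 85.4 and 91.9 against 60.4, 60.7, 66.0 and 58.2 CPM (−0.50 ± 0.14). Elob, which encodes elongin B of ubiquitin ligase complexes, was at 91.7 to 130 against 57.4 to 77.8 CPM (−0.66 ± 0.18). In all 6 genes named here every mutant lay below every control, so a lower level within each run follows and adds no support.

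Genes of the respiratory chain were slightly lower in mutant libraries across almost the whole list. Of 76 nuclear-encoded subunits of the oxidative phosphorylation complexes, 74 were lower in the mutants, against 49.2% of all genes tested, with a median of −0.40 on the log2 scale (all genes 0.01). None was called, 19 were lower at an unadjusted p under 0.05 (all genes 2.3%), and 12 had groups that did not overlap, against 1.96% of all genes. Leaving out mutant replicates 1 and 4, 63 of 76 were lower (all genes 52.8%) with a median of −0.31. The medians within runs 1, 2 and 3 were −0.48, −0.34 and −0.69, and 72 of 76 members were lower within every run (all genes 21.6%). The size rested partly on control replicate 4, the highest library for this list: without it 67 of 76 were lower with a median of −0.26.

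The members that stood apart were 6 subunits of complex I (Ndufa2, Ndufa3, Ndufb8, Ndufb11, Ndufs7 and Ndufv1), Uqcrc1 and Uqcrq of complex III, Cox4i1 and Cox7a2 of complex IV, and Atp5d and Atp5k of the ATP synthase. Cox4i1, the regulatory subunit IV of cytochrome oxidase, was at 443, 359, 389 and 566 CPM in control and 261, 288, 321 and 354 CPM in mutant libraries (−0.52 ± 0.19). Ndufs7, an iron-sulphur subunit at the quinone site of complex I, was at 99.6, 82.4, 87.8 and 99.6 against 62.8, 56.0, 74.3 and 62.4 CPM (−0.53 ± 0.15). In both genes every mutant lay under every control. Uqcrq was at 72.0 to 103 against 48.5 to 66.6 CPM (−0.57 ± 0.17), and Atp5d, the delta subunit of the ATP synthase, at 132 to 188 against 89.5 to 120 CPM (−0.54 ± 0.17). Atp5k, another ATP synthase subunit, was at 89.6, 76.3, 88.3 and 167 against 59.7, 69.2, 66.3 and 73.1 CPM (−0.65 ± 0.25), where control replicate 4 was far above the rest. The 13 genes encoded in mitochondrial DNA did not share the direction, with 9 lower and 4 higher and a median of −0.01. Without mutant replicates 1 and 4, 3 were lower and 10 higher (median 0.14).

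Cytosolic ribosomal protein genes, which encode the protein part of the translation machinery, were lower for 79 of 80 members (all genes 49.2%), with a median of −0.41. Their groups stood apart for 5 members, against 1.96% of all genes. In mutant replicates 2 and 3 against the 4 controls, 77 of 81 were lower with a median of −0.47. Within runs 1, 2 and 3 the medians were −0.12, −0.28 and −0.79, and 53 of 80 were lower in every run (all genes 21.6%). Without control replicate 4 the median was −0.21, with 67 of 80 lower. Rpl36, of the large subunit, was at 114.5, 91.7, 90.6 and 134 CPM in control and 83.4, 57.6, 60.1 and 70.5 CPM in mutant libraries (−0.67 ± 0.19; −0.87 without mutant replicates 1 and 4). Rps19, of the small subunit, was at 174 to 228 against 134 to 165 CPM (−0.45 ± 0.16). Both stood apart, while summed over the list the groups overlapped, at 14710 to 25780 against 13370 to 15320 CPM.

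Proteasome subunits were lower for 30 of 31 members (all genes 49.2%), with a median of −0.30. Psmb5 and Psmb3 were the 2 members apart, against 1.96% of all genes. Without mutant replicates 1 and 4, 22 of 31 were lower (median −0.22). Within runs the medians were −0.27, −0.28 and −0.53, and 28 of 31 were lower in each (all genes 21.6%). Without control replicate 4 the median shrank to −0.10, with 25 of 31 lower. The plot of list levels shows that each mutant lay below the controls of its own run in the respiratory chain and proteasome lists. Control replicate 2, at −0.34 and −0.33, lay below mutant replicates 2 and 3 in both, so the groups overlapped. For the ribosomal list mutant replicate 1 (−0.23) lay between its own run's controls (0.02 and −0.26).

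**Figure D2:**
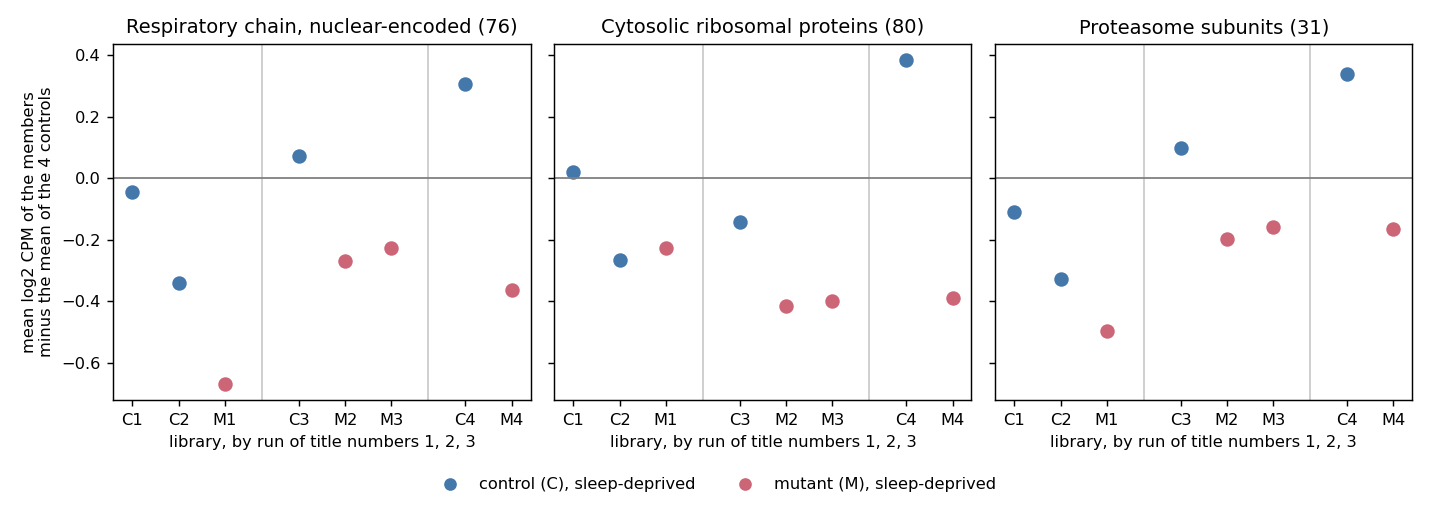
Points give, for each library, the mean log2 CPM of the list members tested minus the mean of the 4 control libraries, for 76 respiratory chain, 80 cytosolic ribosomal protein and 31 proteasome genes, ordered by run with grey lines between runs. Control replicate 4 is highest in all 3 panels (0.31, 0.38 and 0.34) and mutant replicate 1 lowest in those of the respiratory chain and the proteasome (−0.67 and −0.50).

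Transcript length moved with these differences. Sorted by the length of their longest annotated transcript (GENCODE M21, 5 equal groups or quintiles, 18554 of 18604 genes matched), the shortest quintile of genes had a median of −0.15 and the longest quintile 0.17. The shares lower in the mutants were 63.5%, 65.0%, 54.6%, 41.0% and 21.2% from the shortest to the longest quintile. The medians also climbed from the shortest to the longest quintile without mutant replicates 1 and 4 (−0.20 to 0.16), without control replicate 4 (−0.06 to 0.13) and within run 2 (−0.13 to 0.07), was steepest in run 3 (−0.35 to 0.31), and in run 1 quintile 2 was the lowest (−0.09, against −0.07 in the shortest and 0.12 in the longest). Groups stood apart on the lower side for 131 genes of the shortest quintile and 11 of the longest, and on the higher side for 25 and 76. Of the list members, 48 of 76 respiratory chain, 58 of 80 ribosomal and 13 of 31 proteasome genes lie in the shortest quintile. There their medians were −0.48, −0.43 and −0.33, beside −0.29, −0.29 and −0.29 for the other genes of that quintile above 10 CPM. In quintile 2 they were −0.29 (16 members), −0.34 (13) and −0.30 (10), beside −0.16 for the other genes above 10 CPM. In quintile 3 they were −0.26 (8 members), −0.47 (6) and −0.17 (8), beside −0.06. The part of transcript length in the list differences was not tested.

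**Figure D3:**
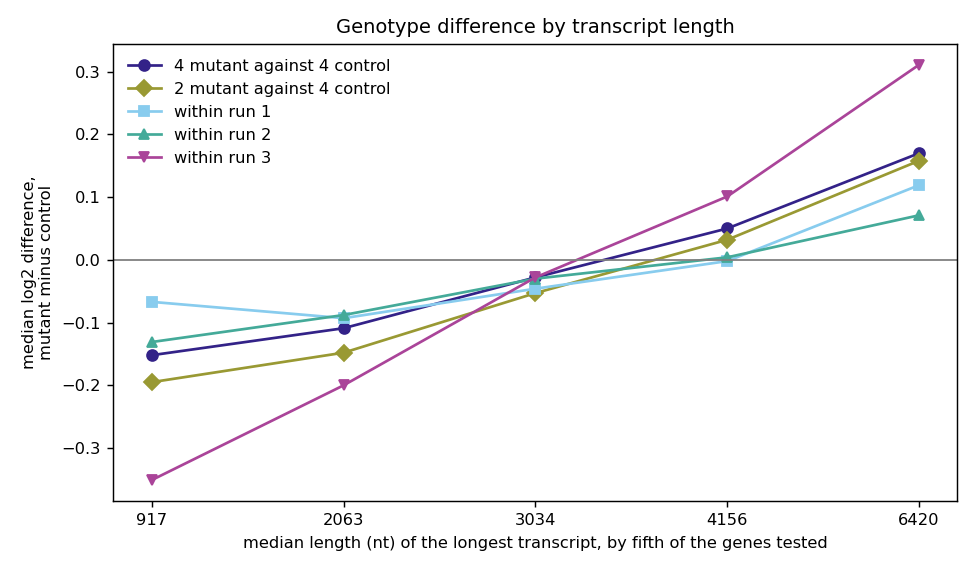
Lines give the median log2 difference of mutant minus control over the genes of each quintile of transcript length, labelled by the median length in nt (917 to 6420), for 4 against 4 libraries, for 2 against 4 and within each run. All 5 lines are below 0 in the shortest quintile and above 0 in the longest, and run 3 spans the widest range, from −0.35 to 0.31.

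The promoter of Atp5k is shown because this member stood apart and carries the element for which respiratory chain promoters are known, a binding motif of nuclear respiratory factor 1 (GCGCA, any base and GCGC, on either strand). The motif is in 16 of 64 respiratory chain promoters (25.0%) and in 1293 of 27025 promoters of all genes (4.78%), counted in windows of 300 bases from RefSeq (GRCm38.p6). Among proteasome promoters it is in 6 of 25 and among ribosomal ones in 4 of 59. Besides Atp5k, Uqcrc1 was the member that stood apart with the motif in its window. The other respiratory chain promoters with the motif belong to members whose groups overlapped. A match of letters describes the window and shows no binding. The stretch printed reads toward the gene from base −250 to base −41 before the RefSeq start (chr5:108434440-108434649, minus strand), with the motif in capitals.
Atp5k promoter: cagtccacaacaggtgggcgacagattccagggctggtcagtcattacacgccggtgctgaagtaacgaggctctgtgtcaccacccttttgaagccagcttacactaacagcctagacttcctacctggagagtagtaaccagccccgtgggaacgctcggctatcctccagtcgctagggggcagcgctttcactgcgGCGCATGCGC

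Among hypothalamic peptides, 24 of 34 neuropeptide genes tested were lower in mutant libraries, with a median of −0.29, and none was called. With mutant replicates 1 and 4 left out, again 24 of 34 were lower (−0.29); 15 were lower within every run, against 21.6% of all genes, and none was higher in every run. The list is made of short transcripts too, with 27 of 34 in the shortest quintile. Cartpt and Ghrh were the 2 members of 34 whose groups did not overlap, against 1.96% of all genes on the lower side and 1.16% on the higher. Cartpt encodes CART, a peptide that restrains feeding and is made in arcuate and lateral hypothalamic neurons. It was at 77.7, 54.8, 54.4 and 64.8 CPM in control and 35.4, 32.1, 51.0 and 32.5 CPM in mutant libraries. Mutant replicate 3 came close to the lowest control and the other mutants stayed well below it, for a difference of −0.74 ± 0.20 on the log2 scale (−0.59 ± 0.26 without mutant replicates 1 and 4). Within runs it was −0.88, −0.43 and −0.996. Ghrh, the releasing hormone for growth hormone, was at 13.1, 10.6, 8.43 and 18.6 against 7.35, 5.94, 7.72 and 7.29 CPM (−0.84 ± 0.26). Every mutant was under every control, though control replicate 3 and mutant replicate 3 were close.

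The Cartpt promoter is shown since this gene stood apart and its proximal promoter holds the cyclic AMP response element (TGACGTCA, read on either strand), an activity-dependent regulatory motif. It is present in 2 of the 26 neuropeptide promoters that had a window (7.69%), those of Cartpt and Sst, and in 507 of 27025 promoters (1.88%) of all genes. Other lists held it too, in 6 of 59 ribosomal protein, 5 of 64 respiratory chain (7.81%) and 2 of 19 immediate early promoters. The stretch runs from base −250 to base −1 before the RefSeq start (chr13:99900684-99900933, minus strand, GRCm38.p6), with the element in capitals from −112 to −105.
Cartpt promoter: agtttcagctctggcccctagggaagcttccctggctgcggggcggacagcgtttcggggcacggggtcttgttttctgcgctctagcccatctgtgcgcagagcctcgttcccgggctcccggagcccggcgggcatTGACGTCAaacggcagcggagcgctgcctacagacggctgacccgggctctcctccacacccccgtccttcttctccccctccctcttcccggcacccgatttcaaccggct

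The appetite peptides of the arcuate nucleus gave mixed values. Npy, which drives feeding, was at 57.3, 42.6, 42.9 and 95.0 CPM in control and 42.2, 28.8, 29.5 and 50.2 CPM in mutant libraries (−0.66 ± 0.30), lower within each run. The groups overlapped through mutant replicate 4. Its partner Agrp was at 7.91 to 22.1 against 7.34 to 18.1 CPM (−0.20 ± 0.38). Pomc, the precursor of the satiety peptide alpha-MSH and also a pituitary hormone gene, was at 91.1, 74.8, 30.5 and 88.9 against 4088, 19.4, 22.3 and 105 CPM. Its sign turned with the pituitary-bearing libraries, from 3.89 ± 1.58 over 8 libraries to −1.77 ± 0.45 without them. Pomc is on the pituitary list by which those libraries were left out, so the second value is a description only. Control replicate 3, the 1 control from the same run as both remaining mutants, was also low at 30.5 CPM.

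The lateral hypothalamus showed no shift of its 2 signature peptides beyond the spread between mice. Hcrt was at 47.2, 32.7, 144 and 46.6 CPM in control and 17.4, 133, 193 and 81.0 CPM in mutant libraries. The 3 highest values were the 3 libraries of run 2, whatever their genotype. The means were 67.8 and 106 CPM, with an exact permutation p of 0.4 (0.6 adjusted over 3 genes), and the log2 fold change of 0.65 ± 0.66 became −0.11 with run as a covariate. Pmch was at 522, 451, 1179 and 928 against 230, 901, 1086.5 and 565 CPM, with means of 769.8 and 695.5 and an exact permutation p of 0.743. It was lower in the mutants within each run (−1.08, −0.25 and −0.72), and the sign of the pooled difference turned when mutant replicate 1 or control replicate 3 was left out. Over the 18 lateral hypothalamus genes 13 were lower with a median of −0.12, and without mutant replicates 1 and 4, 8 were lower with a median of 0.10. Within runs 1, 2 and 3 the medians of this list were −0.52, −0.34 and −0.48, and 8 of 18 members were lower in every run (all genes 21.6%).

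Nptx2, a secreted pentraxin of orexin neurons that clusters glutamate receptors, was the other member of that list to stand apart besides Cartpt (2 of 18, all genes 1.96% lower). It was at 41.1, 39.3, 33.8 and 45.5 CPM in control and 26.3, 19.7, 30.7 and 31.8 CPM in mutant libraries. All mutants were under all controls (−0.56 ± 0.19; −0.66 without mutant replicates 1 and 4), and the gap was −0.61, −0.46 and −0.52 within runs. Qrfp, an arousal and feeding peptide of the same region, was at 4.76 to 10.01 against 2.29 to 4.95 CPM (−0.86 ± 0.34), with overlap. Hdc, the histamine-producing enzyme of the arousal neurons next to this area, was at 138, 119, 64.1 and 120 against 88.3, 60.2, 74.9 and 76.8 CPM (−0.56 ± 0.24), with control replicate 3 inside the mutant range. Oxt and Avp, the magnocellular hormones, overlapped widely, at 67.5 to 233 against 108 to 225 CPM (0.01 ± 0.36) and at 141 to 539 against 212 to 261 CPM (−0.48 ± 0.34). Trh was at 45.6 to 137 against 70.3 to 140 CPM (0.17 ± 0.34), and Gal was at 0 to 4.41 against 0 to 4.82 CPM. Fewer cells of a type and less RNA per cell cannot be told apart in these bulk samples. The receptor of Npy, Npy1r, was at 17.02 to 20.5 against 11.7 to 16.3 CPM (−0.35 ± 0.17). It was the 1 receptor of 30 to stand apart, a share near the background of 1.96% lower and 1.16% higher.

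**Figure D4:**
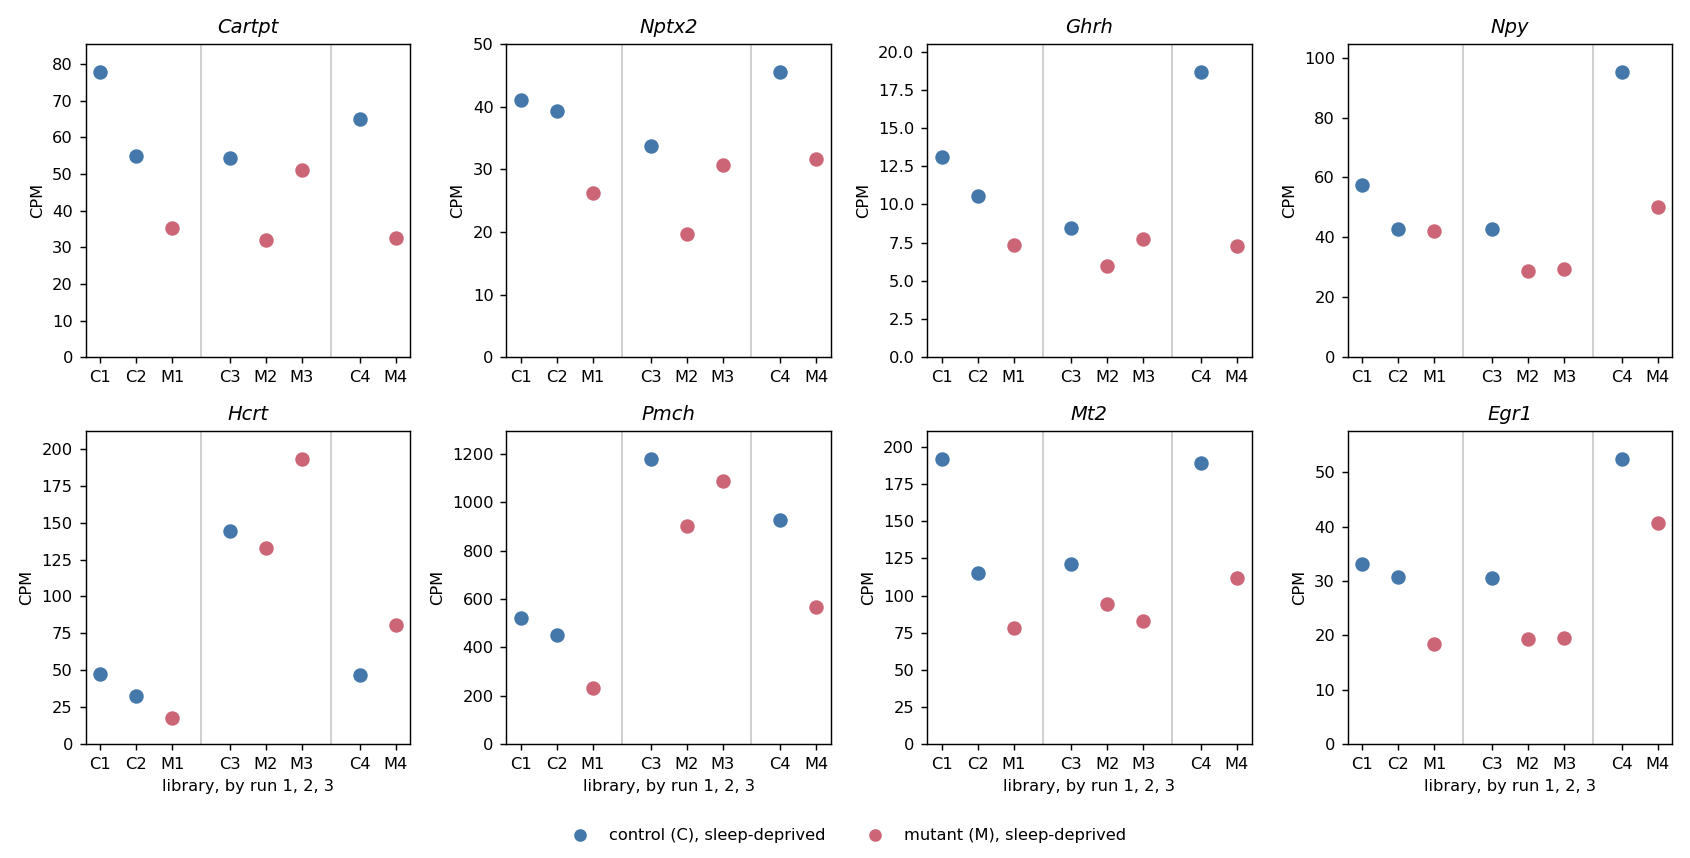
Each point is the CPM of a gene in 1 library, control (C) in blue and mutant (M) in red, with libraries ordered by run and axes starting at 0. Cartpt, Nptx2, Ghrh and Mt2 have every mutant below every control, Npy and Egr1 have every mutant below the controls of its own run, and Hcrt is highest in the 3 libraries of run 2 (133 to 193 CPM).

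Genes that answer to sleep loss were read for a genotype difference within the deprived state. Stress hormone targets differed in direction between runs: of 19 glucocorticoid-responsive genes 12 were lower (median −0.08), and without mutant replicates 1 and 4, 17 of 19 were lower (median −0.76). The median was −0.34 and −0.46 within runs 1 and 2 and 0.44 within run 3. Mutant replicate 4 summed to 1250 CPM over this list and the other 3 mutants to 674 to 734 CPM, while the controls lay between 882 and 1267 CPM. Sgk1, a kinase induced by corticosterone, was at 118, 91.7, 120 and 68.1 CPM in control and 30.2, 44.4, 62.0 and 119 CPM in mutant libraries (−0.64 ± 0.39). Mutant replicates 1 to 3 were below every control and mutant replicate 4 was not. Mt2, a metallothionein that binds zinc and is induced by glucocorticoids, was at 192, 114.97, 122 and 190 against 78.0, 94.1, 82.8 and 112 CPM (−0.75 ± 0.22). It was the 1 member of 19 to stand apart (all genes 1.96% lower), and Mt1 had the same log2 fold change of −0.75 ± 0.32 with groups that overlapped.

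Immediate early genes, which mark recent neuronal activity, were lower for 14 of 23 members (median −0.11) and, without mutant replicates 1 and 4, for 20 of 24 (median −0.44). Within runs 1, 2 and 3 the medians were −0.25, −0.05 and 0.12, so the 2 remaining mutants hardly differed from the control of their own run. With single libraries left out of the 8, the median was 0.01 without control replicate 1. It was −0.26 without control replicate 3 and −0.30 without mutant replicate 1. Egr1 was at 33.1, 30.7, 30.6 and 52.5 CPM in control and 18.4, 19.4, 19.5 and 40.7 CPM in mutant libraries (−0.59 ± 0.30). Mutant replicates 1 to 3 were below every control, and in run 3 both libraries were high, with the mutant again the lower. Fos was at 11.3 to 17.5 against 7.84 to 15.3 CPM (−0.36 ± 0.25), and Junb at 6.83 to 15.4 against 6.15 to 13.7 CPM. Arc, which acts at synapses, differed by −0.11 ± 0.26 on the same scale. Homer1 pointed the other way, at 18.01 to 30.2 against 21.8 to 38.7 CPM (0.37 ± 0.23). No member of the list stood apart.

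The clock, the cold-inducible proteins and the chaperones gave small differences with overlapping groups, apart from 1 gene. Over 22 core clock genes the median was −0.05 (−0.16 without mutant replicates 1 and 4), with Per1 at −0.12 ± 0.31, Per2 at 0.27 ± 0.22 and the output factor Dbp at −0.48 ± 0.25 on the log2 scale. The cold-inducible RNA-binding genes Cirbp and Rbm3 were at −0.24 ± 0.19 and −0.23 ± 0.16. Hspa5, the main chaperone of the endoplasmic reticulum, was at 0.06 ± 0.29 and took the other sign without control replicate 1 or 2 or mutant replicate 4. Hspa4l, a cytosolic chaperone of the Hsp110 family, was at 23.2, 30.9, 36.5 and 25.8 against 42.2, 42.8, 39.5 and 39.7 CPM (0.50 ± 0.17). It was the 1 cytosolic chaperone of 20 to stand apart (all genes 1.16% higher and 1.96% lower), while 11 of the 20 were lower within every run (all genes 21.6%). In cholesterol synthesis 17 of 24 members were lower (median −0.11), and Fdps and Fdft1, successive enzymes before squalene, stood apart (2 of 24, all genes 1.96% lower) at 71.0 to 91.3 against 52.2 to 69.3 CPM and 111 to 136 against 89.1 to 108 CPM. Without mutant replicates 1 and 4 that list had 11 lower and 13 higher members.

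The plot of list medians sets both comparisons side by side. The lists with medians under −0.25 in both were cytosolic ribosomal proteins, respiratory chain, meninges and fibroblasts, and neuropeptides. The meningeal list did not keep its sign, with medians of 1.17, 0.68 and −1.65 within runs 1, 2 and 3, 0.37 with run as a covariate and 0.60 without control replicate 4. Lists of long transcripts lay on the other side, with 26 of 37 voltage-gated channel genes higher (50.8% of all genes, median 0.11) and 24 of 37 glutamate and GABA receptor subunits higher (median 0.06). None stood apart in either list, and both medians were below 0 within run 1 (−0.11 and −0.14). Markers of other cells varied by library. Summed over 5 blood genes, control and mutant replicates 4 were at 1426 and 1895 CPM and the other libraries at 261 to 432 CPM. Meningeal and fibroblast markers ran from 459 to 2085 CPM in control and 427 to 905 CPM in mutant libraries. Myelin markers were at 3385 CPM in mutant replicate 1 and at 6242 to 9114 CPM elsewhere. Hypothalamic transcription factor genes summed to 412 to 559 CPM in all 8 libraries, so the labelled tissue was present in each. The part of these cell markers in the gene differences was not tested.

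**Figure D5:**
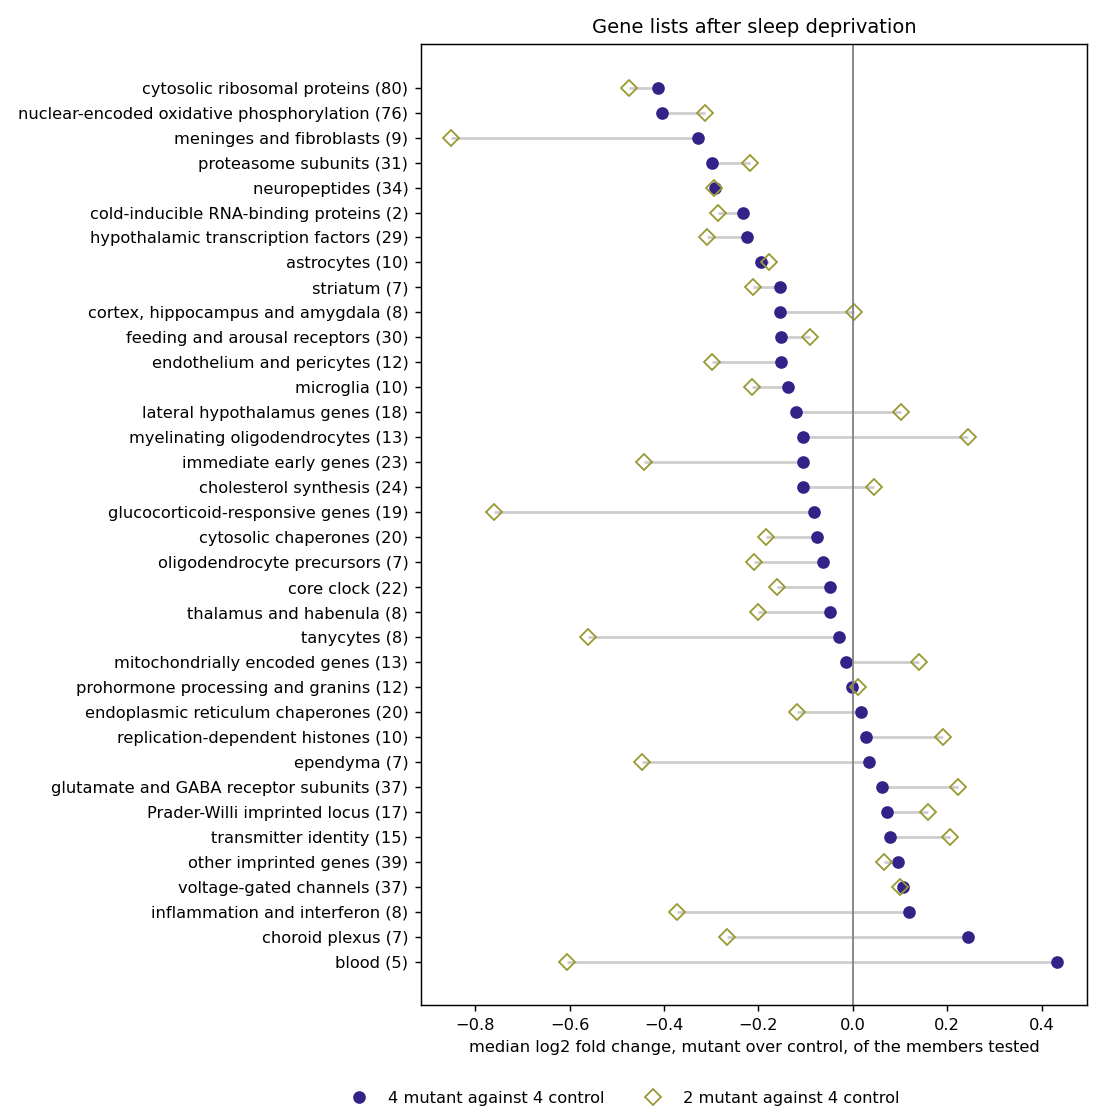
Filled circles give the median log2 fold change of each list over the members tested (their number in brackets) for 4 mutant against 4 control libraries, and open diamonds for mutant replicates 2 and 3 against the same controls; the pituitary list is left off, since it follows 2 libraries. Ribosomal (−0.41 and −0.47) and respiratory chain genes (−0.40 and −0.31) lie to the left in both, while glucocorticoid-responsive genes move from −0.08 to −0.76.

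Left without mutant replicates 1 and 4, 1613 genes (8.36%) were higher and 1986 (10.3%) lower in both mutants than in all 4 controls. Fewer splits exist for 2 against 4 than for 4 against 4, so a gene unrelated to genotype stands apart more often. Both mutants also belong to run 2, so these shares alone show no genotype difference. Pcx, the pyruvate carboxylase that refills the citric acid cycle, was at 14.9, 9.06, 13.8 and 27.3 CPM in control and 3.02 and 2.47 CPM in mutant replicates 2 and 3 (−2.56 ± 0.48, DESeq2 adjusted p = 0.000186). The excluded mutants were at 10.8 and 35.8 CPM, inside or above the control range. Col4a1, a basement membrane collagen of vessels and meninges, was at 22.5 to 44.8 against 10.2 CPM in both (−1.61 ± 0.35, DESeq2 adjusted p = 0.0197), and at 45.3 and 4.97 CPM in mutant replicates 1 and 4. Ugt8a, an enzyme of myelin lipid synthesis, was among the higher genes of smallest p, at 47.1 to 75.8 against 113 and 96.8 CPM (0.85 ± 0.22) with the excluded mutants at 36.2 and 58.0 CPM. None of these 3 genes had the same order in all 4 mutants.

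Whether the genotype difference after sleep deprivation departed from that at ZT6 was tested as an interaction in 14 libraries, with 2 mutant and 4 control libraries at ZT6. The 2 other ZT6 mutant libraries, which earlier results had set apart from the rest of the series, were left out. EdgeR called 0 of 20809 genes (375 at an unadjusted p under 0.05), and 0 without the 3 pituitary-bearing libraries. DESeq2 called 8, among them Ghrhr, a pituitary receptor gene, and Cwf19l1, whose difference after sleep deprivation was below that at ZT6 by −3.84 on the log2 scale (adjusted p = 0.0221; edgeR −3.87, adjusted p = 1). The median of the difference was −0.28 for respiratory chain, −0.15 for ribosomal, −0.29 for proteasome, −0.23 for neuropeptide and −0.56 for lateral hypothalamus genes, against 0.03 over all genes. No list member was called, and the lists' differences from ZT6 carry no test of their own.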

How the data were processed

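Per the labels' protocols and the submitters' processing notes, libraries of polyadenylated RNA from mouse hypothalamus were run on an Illumina NovaSeq. FastQC served for quality control, Trimmomatic 0.38 for trimming, kallisto 0.44.0 with an index of Ensembl 79 transcripts for quantification and tximport for gene sums. The values deposited by the authors are kallisto's estimated counts summed per gene, as whole numbers and without normalisation, per the labels and the file headers. Of 41461 lines, 5 that repeat a gene ID were dropped. Read strand and the handling of near-identical copies are not given in the sources used here.

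The 8 sleep-deprived libraries were fitted with edgeR 4.0.16 in R 4.3.3: TMM factors, filterByExpr by group (minimum count 10, minimum total 15), two-sided quasi-likelihood F tests, Benjamini-Hochberg adjustment over all genes tested and calls at an adjusted p under 0.05. Standard errors (SE) were derived from each fold change and its F statistic, as |log2 fold change|/√F. DESeq2 1.42.0 was an alternative. Differences within runs are of log2 CPM with a prior count of 2. No pair of libraries agreed within sampling noise (smallest chi-square per degree of freedom 21.85). Fits were checked on simulated data with a smaller spread between replicates than the dispersion of 0.152 in the 4 against 4 fit. The simulation held no run effect and no pituitary-bearing libraries, so it does not show how many true differences the fits would miss here.

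Lists are described by counts and medians. The libraries compared, the 37 lists, the tests and the rule for named genes were chosen with earlier results of these data known. That rule names the Prader-Willi region, the 10 smallest p-values each way above 1 CPM in both comparisons, list members that stood apart with the 4 largest changes, and fixed peptide, clock, activity and pituitary genes; the text gives those that best describe each group. The split by length and the values within runs were added after seeing the data.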

Additional observations from a re-analysis of the deposited data

Results flagged for a closer look

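Within groups of 4 libraries, 29 of 266 sets of values held 1 library whose gap to its nearest neighbour exceeded 0.829 of the group's range. About 1 in 20 sets would exceed it by chance for independent, normally distributed values. These sets are of CPM and some share genes, so the number expected here is not known. Mutant replicate 1 stood far above the other mutants in Gh (17400 CPM), Prl (2170), Pomc (4090), Cga (792), Fshb (185), the prohormone convertase gene Pcsk2 (414), Col4a1 (45.3) and Rps13 (114), and in the summed CPM of pituitary genes (20800) and neuropeptides (5580), a list that holds Pomc. It stood below them in the sums of respiratory chain genes (7330) and voltage-gated channels (2760).

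Control replicate 4 was apart from the other controls in Atp5k (167 CPM), Egr1 (52.5), Krt77 (19.9) and Ube3a (9.32), and in the sums of astrocyte genes (4470), hypothalamic transcription factors (559) and blood genes (1430). Mutant replicate 4 was apart from the other mutants in Egr1 (40.7 CPM), Nfkbia (36.4) and in the sums of glucocorticoid-responsive genes (1250) and blood genes (1890). The remaining cases were Hcrt at 144 CPM in control replicate 3, Junb at 6.83 CPM and the striatum marker sum at 134 CPM in the same library, Psmb3 at 72.0 CPM in control replicate 1, and Cwf19l1 at 1.12 and Krt77 at 8.93 CPM in mutant replicate 2.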

How the results depend on the processing

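EdgeR called 0 genes with 4 against 4 libraries under RLE factors, no low-count filter, a limit of over 2-fold, the fits of 22 and 17 libraries and each library left out (292 to 1005 genes at an unadjusted p under 0.05), and 1 gene with run as a covariate. DESeq2 called 0 there, and 7 with 2 against 4. In that smaller comparison edgeR called 43 genes without control replicate 3 (40 higher and 3 lower) and 0 without any other control. Most of the 43 shared 1 log2 fold change of 3.34, among them Rn5s and the n-R5s ribosomal RNA genes, so they are not separate results. Leaving out control replicate 3 also removes the 1 control of run 2, the run of both mutants, so run and genotype cannot be told apart there. For the difference from ZT6, DESeq2 called 8. The labels give the 2 groups no shared replicate numbers, so the fit with run as a covariate was the 1 blocked fit.

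Of 95 genes named, 18 changed sign under some alternative; the cause was not tested, except that leaving out mutant replicates 1 and 4 removes the libraries high in pituitary genes. Without mutant replicates 1 and 4 the log2 fold changes were −8.90 for Gh, −6.60 for Prl, −1.77 for Pomc, −7.76 for Cga and −6.07 for Fshb. They were −9.24 ± 4.24 for Ube3a, 0.38 for Pmch, −0.25 for Oxt, −0.067 for Hspa5, −0.04 for Per2 and −0.54 for Fkbp5. Gh, Prl and Ube3a were at 0 CPM in both remaining mutants, so their values are ratios to 0 counts. Control replicates 1 to 4 had Ube3a at 0, 1.44, 0 and 9.32 CPM, and Prl at 0.637 CPM at most. With run as a covariate Hcrt was −0.11 and Per1 0.052, and in the fit of 17 libraries Oxt was −0.007. Over single libraries left out, the values ran from −0.55 to 4.30 for Pomc, −0.47 to 0.14 for Agrp, −0.45 to 0.15 for Pmch, −0.26 to 0.31 for Oxt, −0.059 to 0.40 for Trh, −0.60 to 0.92 for Gal, −0.11 to 0.42 for Hspa5, −0.30 to 0.011 for Arc, −0.32 to 0.077 for Per1, −1.57 to 0.06 for Pcx and −0.27 to 0.35 for Fkbp5. The Pmch difference of means ran from −204.6 to 80.96 CPM. Of 555 list medians under alternatives, 540 moved by less than the spread and 15 by more.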
